A study of Mus musculus with 32 samples.

Results

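The 5 genes described here encode the subunits of the IL-12 cytokine family, Il12b, Ebi3, Il12a, Il23a and Il27. They were taken by symbol from 25067 named genes, and each is represented by its transcript row with the highest mean count over all libraries. All 5 were among the 11282 genes tested, which had a mean over 1 RPKM (reads scaled to transcript length and library total) in at least 1 group. Il12a, Il23a and Il12b passed this filter only through the groups stimulated with lipopolysaccharide (LPS). Il12a and Il23a were at 0 counts in all libraries at 0 h. Il12b had a mean of 0.010 RPKM in the wild-type and 0.042 RPKM in the knockout libraries at 0 h.

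The study compared bone marrow-derived macrophages (BMDMs) of wild-type mice (BMDM-WT) and of mice lacking the nuclear receptor Nur77 (BMDM-Nur77-KO, gene Nr4a1) to follow the inflammatory response to LPS. RNA-seq was performed at 0, 1, 5 and 18 h of 100 ng/ml LPS with 4 libraries in each of the 8 genotype-by-time groups, 32 in all. The cells came from male mice of strain C57Bl6/J aged 6 to 12 weeks and were cultured for 7 days with L929-conditioned medium, so that every group shared this differentiation. The 0 h groups received no LPS. The knockout was whole-body: a CMV promoter drove Cre recombinase in mice with a loxP-flanked Nr4a1 locus, and the methods describe the knockout mice used as without Cre, although the genotype label of their libraries reads "cre". BMDM-WT came from wild-type littermates. The number of mice behind the 4 replicates is not given in the sources used here, so p-values measure the spread between these libraries, which may be technical.

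IL-12 family cytokines are heterodimers that share their chains. The p40 chain (Il12b) pairs with p35 (Il12a) to form IL-12, which drives interferon-gamma production by T and NK cells, or with p19 (Il23a) to form IL-23, which sustains Th17 cells. EBI3 (Ebi3) pairs with p28 (Il27) to form IL-27, which restrains and shapes T cell responses, and with p35 to form IL-35. Activated macrophages and dendritic cells are the main sources of IL-12, IL-23 and IL-27, and a complete cytokine needs both of its chains.

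In the GENCODE annotation of GRCm38, Il12b lies at chr11:44400063-44414033 on the plus strand, Il12a at chr3:68690644-68698547 (plus), Il23a at chr10:128296139-128298752 (minus), Il27 at chr7:126589010-126594941 (minus) and Ebi3 at chr17:55952640-55957022 (plus). The transcripts counted have 8, 7, 4, 5 and 5 exons in the same order. Il27 overlaps the end of Apobr on the other strand, and Ebi3 overlaps the antisense gene Gm16712. Whether the counting used the strand is not given, and without it reads from these overlaps cannot be told apart. No other gene overlaps Il12b, Il12a or Il23a. The RefSeq promoter table of GRCm38.p6 had entries for 3 members. The 250 bases before their start sites are shown because these genes rose together at 5 h of LPS and separated at 18 h. They are chr11:44399813-44400062 for Il12b, chr3:68690394-68690643 for the upstream of 2 listed Il12a starts, and chr17:55952373-55952622 for Ebi3, all plus strand and 5′ to 3′, with matches to the motifs searched in capitals.
Il12b: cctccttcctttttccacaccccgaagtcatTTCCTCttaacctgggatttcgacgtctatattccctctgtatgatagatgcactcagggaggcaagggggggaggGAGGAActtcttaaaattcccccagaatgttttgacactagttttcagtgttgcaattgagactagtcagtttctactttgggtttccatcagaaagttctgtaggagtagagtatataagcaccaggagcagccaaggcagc
Il12a: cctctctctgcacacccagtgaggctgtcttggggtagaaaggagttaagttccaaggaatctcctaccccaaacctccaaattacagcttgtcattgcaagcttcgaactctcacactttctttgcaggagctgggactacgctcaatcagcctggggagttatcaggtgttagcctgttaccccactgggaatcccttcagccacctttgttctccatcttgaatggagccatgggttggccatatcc
Ebi3: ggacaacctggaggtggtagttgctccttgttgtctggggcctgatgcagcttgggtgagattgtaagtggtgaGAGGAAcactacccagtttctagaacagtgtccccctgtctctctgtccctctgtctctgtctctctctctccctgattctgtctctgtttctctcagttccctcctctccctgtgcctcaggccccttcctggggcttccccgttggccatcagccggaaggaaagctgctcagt
The letters searched on both strands were TGANTCA (AP-1), GGGA and TTCC with 2 bases between them (NF-kB), GAAA and GAAA with 2 bases between them (IRF), TTGCNNAA (C/EBP), GAGGAA (PU.1) and AAAGGTCA (Nur77 response element). The Il12b window held GAGGAA at -219 on the minus strand and at -143 on the plus strand relative to the start, and the Ebi3 window held it at -176 on the plus strand. The windows before both Il12a starts held none of the 6. GAGGAA was present in 23.3% of the 32851 promoter windows of this length, the AP-1 letters in 6.75%, those of NF-kB in 1.21%, IRF in 2.98%, C/EBP in 9.56% and the Nur77 response element in 1.34%. No match says only that these letters are not in this window.

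Libraries held 8742362 to 15780926 counts over all genes. Nr4a1, one value over the whole transcript, had 19.7 ± 4.34 CPM (counts scaled to the library total) in BMDM-WT and 5.24 ± 1.19 CPM in BMDM-Nur77-KO at 0 h, and 437 ± 60.3 against 191 ± 39.9 CPM at 1 h (mean ± SD, n = 4), so reads of the gene were reduced but not absent in the knockout at these times. At 5 h it was low in both, 0.932 ± 0.115 and 0.313 ± 0.261 CPM, and at 18 h, at 0.319 ± 0.131 and 0.226 ± 0.183 CPM, no difference was called (log2 -0.47, SE 0.69, adjusted p = 0.68, edgeR), so the gene does not check the genotype labels of the 18 h libraries. All 7 macrophage markers (Adgre1, Itgam, Csf1r, Cd68, Mertk, Fcgr1 and Lyz2) were detected, with a summed level of 10873 to 18378 CPM per library. One library stood apart: replicate 1 of BMDM-Nur77-KO at 5 h differed from its group by a median of 0.485 on the log2 scale, against 0.0819 to 0.347 for the other libraries, and calls between genotypes at 5 h, or in the change from 5 to 18 h, are given with and without it. The next highest, at 0.347, was replicate 4 of BMDM-Nur77-KO at 18 h. In bulk RNA, fewer cells that make a transcript and less of it per cell cannot be told apart.

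The 5 subunits followed 3 time courses. Il12b, Il12a and Il27 were highest at 5 h in both genotypes, Il23a was highest at 1 h, and Ebi3 had its highest mean at 18 h. After 18 h of LPS, Il12b, Il12a and Il27 had fallen further in BMDM-WT than in the knockout, whereas Ebi3 stood at the same mean level in both. Il23a was lower in the knockout at 1 h but higher there at 5 h. Effects were called where the adjusted p of edgeR's quasi-likelihood test (Benjamini-Hochberg method over all genes tested) was under 0.05 and, in addition, the log2 fold change exceeded 1 for LPS and time or 0.58 for genotype, while interactions had no limit of size.

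In BMDM-WT, 2 of 5 subunits were called higher than at 0 h after 1 h of LPS (Il12b and Il23a), all 5 after 5 h, and 4 after 18 h. The shares of all genes called higher were 3.43%, 15.7% and 13.1%. In BMDM-Nur77-KO the counts were 2, 5 and 5 of 5, against 3.23%, 16% and 15.4% of all genes. These counts include Il12a in BMDM-WT and Il23a in BMDM-Nur77-KO at 18 h, which had 9 and 4 counts over their 4 libraries against 0 at 0 h, and no fold is given for them. Il12b, Il12a and Il23a passed the filter only through groups given LPS. Their calls as higher than at 0 h were thus favoured in advance and are no independent support. From 5 to 18 h, 4 of 5 subunits fell in BMDM-WT (14.3% of all genes were called lower) and 3 of 5 in BMDM-Nur77-KO (14.3%). Between genotypes, edgeR called none of the 5 at 0 h (4.81% of all genes were called; DESeq2 also called 0, and 1 subunit, Ebi3, had an unadjusted p under 0.05), 1 at 1 h (2.86%), 3 at 5 h (8.75%) and 3 at 18 h (9.82%). Without the library that stood apart, 2 were called at 5 h (Il12a and Il23a), against 4.83% of all genes. With any single 18 h library left out, 3 remained called at 18 h.

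**Figure D1:**
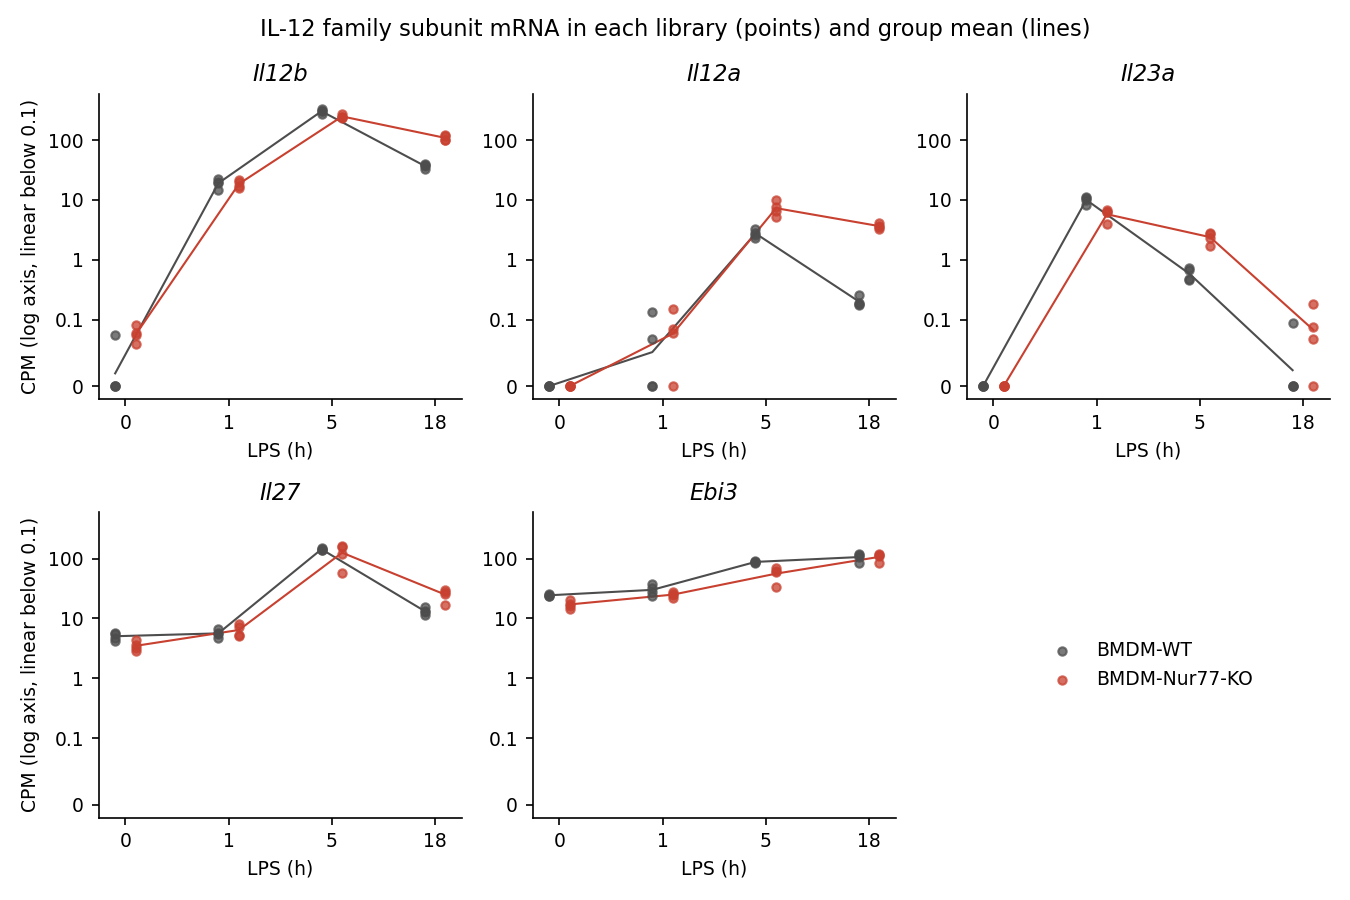
Normalised counts scaled to the library total (CPM, log axis that is linear below 0.1) of the 5 subunit genes against hours of LPS, with a point for each library (4 per group) and a line through the group means, BMDM-WT in grey and BMDM-Nur77-KO in red. At 18 h the Il12b, Il12a and Il27 points of the genotypes separate, while those of Ebi3 overlap.

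Il12b, the p40 chain shared by IL-12 and IL-23, was nearly absent at rest and rose in both genotypes to its highest level at 5 h. At 0 h, 1 count was found over the 4 BMDM-WT libraries and 4 counts over the 4 BMDM-Nur77-KO libraries. Against these few counts, the ratio of the pooled level at 5 h was 18014 in BMDM-WT (95% interval 3232 to 711570, counting error) and 3247 in BMDM-Nur77-KO (1268 to 11921), intervals that overlap. At 1 h it stood at 14.9 to 22.2 CPM in BMDM-WT and at 15.8 to 21.4 CPM in BMDM-Nur77-KO, overlapping ranges. The log2 difference at 1 h was -0.03 (SE 0.11, 95% interval -0.26 to 0.19, adjusted p = 0.93, edgeR).

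At 5 h, the 4 BMDM-WT libraries held 326, 303, 308 and 276 CPM of Il12b. The BMDM-Nur77-KO libraries held 273, 246, 240 and 235 CPM. Every knockout library was below every wild-type library, but the log2 difference of -0.29 (SE 0.10, adjusted p = 0.038, edgeR) was within the limit of 0.58, as it was without the library that stood apart (-0.33, adjusted p = 0.022, edgeR). At 18 h the order was turned: BMDM-WT held 40.3, 36.2, 38.9 and 32.6 CPM, and BMDM-Nur77-KO held 119, 99.8, 100.3 and 115 CPM. The groups did not overlap, and Il12b was 2.93-fold higher in BMDM-Nur77-KO (log2 1.55, SE 0.11, adjusted p = 1.7e-12, edgeR). The level at 18 h was 12.2% of the 5 h mean in BMDM-WT and 43.7% in BMDM-Nur77-KO. From 5 to 18 h Il12b fell by 3.03 on the log2 scale in BMDM-WT (SE 0.11) and by 1.19 in BMDM-Nur77-KO (SE 0.10). The difference between these falls, tested as an interaction of genotype and time, was 1.84 (SE 0.15, adjusted p = 3.8e-10, edgeR), and 1.89 without the library that stood apart. This interaction and the comparison at 18 h share their 18 h libraries, here and for the other subunits.

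The macrophage marker sum was 10873 to 12340 CPM in BMDM-Nur77-KO and 13804 to 14397 CPM in BMDM-WT at 18 h, and its part in the differences at this time was not tested. Of the 7 markers, 6 had a lower group mean in the knockout at 18 h, and Mertk had a higher one (318 CPM in BMDM-WT and 514 CPM in BMDM-Nur77-KO).

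Ebi3, the second shared chain, was present at rest and had the smallest response to LPS of the 5 at 5 h, 3.61-fold over 0 h in BMDM-WT (log2 1.85, SE 0.16) and 3.27-fold in BMDM-Nur77-KO (log2 1.71, SE 0.17). By 18 h it stood 4.35-fold and 6.23-fold over 0 h. At 0 h the BMDM-WT libraries held 23.8, 23.7, 24.6 and 25.2 CPM. The BMDM-Nur77-KO libraries held 14.6, 16.4, 17.5 and 20.0 CPM. All 4 knockout libraries were lower than all wild-type libraries, with a log2 difference of -0.51 (SE 0.17, adjusted p = 0.043, edgeR) that did not reach the limit of 0.58. At 1 h the ranges overlapped, 23.4 to 37.0 CPM in BMDM-WT and 22.0 to 28.0 CPM in BMDM-Nur77-KO (log2 -0.27, SE 0.16, 95% interval -0.60 to 0.06, adjusted p = 0.44, edgeR). From 0 to 1 h Ebi3 differed by 0.31 in BMDM-WT (SE 0.16, adjusted p = 0.19, edgeR). In BMDM-Nur77-KO it differed by 0.54 (SE 0.17, adjusted p = 0.027, edgeR), under the limit of 1.

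At 5 h, BMDM-WT held 87.7, 87.0, 92.1 and 84.8 CPM of Ebi3, and BMDM-Nur77-KO held 33.0, 59.1, 61.9 and 70.03 CPM. The groups did not overlap, and Ebi3 was 1.57-fold lower in the knockout (log2 -0.65, SE 0.16, adjusted p = 0.0038, edgeR). The lowest value, 33.0 CPM, was that of the library that stood apart. Without it the log2 difference was -0.47 (adjusted p = 0.013, edgeR), under the limit, and with only the libraries of the 2 groups in the fit the adjusted p was 0.11. At 18 h the values were 114, 120, 82.8 and 106 CPM in BMDM-WT and 118, 110, 115 and 83.9 CPM in BMDM-Nur77-KO. These ranges coincided, with a log2 difference of 0.01 (SE 0.15, 95% interval -0.30 to 0.32, adjusted p = 0.97, edgeR). Between 5 and 18 h Ebi3 differed by 0.27 on the log2 scale in BMDM-WT (SE 0.15, adjusted p = 0.12, edgeR) and by 0.93 in BMDM-Nur77-KO (SE 0.16, adjusted p = 4.9e-06, edgeR), just under the limit of 1. The interaction was 0.66 (SE 0.22, adjusted p = 0.041, edgeR), and it missed the threshold when any of 12 of the 16 libraries was left out, including replicate 1 of BMDM-Nur77-KO at 5 h (0.48, adjusted p = 0.057, edgeR).

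Il12a, the p35 chain that limits IL-12 in many myeloid cells, had at most 90 counts in any library and, of the 3 subunits called between genotypes at 18 h, the largest fold. No count was found at 0 h in any library, and at 1 h there were 3 counts over the BMDM-WT libraries and 4 over the BMDM-Nur77-KO libraries. At 5 h the BMDM-WT libraries had 23, 19, 29 and 24 counts (2.62, 2.33, 3.22 and 2.84 CPM). The BMDM-Nur77-KO libraries had 90, 78, 54 and 77 counts (9.82, 6.54, 5.18 and 7.56 CPM). The lowest knockout library exceeded the highest wild-type library, and Il12a was 2.62-fold higher in the knockout (log2 1.39, SE 0.21, adjusted p = 4.8e-05, edgeR). Against the floor of 3 counts over the group at 0 h, Il12a at 5 h of LPS was at least 54.6-fold higher for BMDM-WT, and for BMDM-Nur77-KO the same bound was at least 125-fold. For the difference between genotypes, leaving out single libraries gave 1.22 to 1.52, the lowest of these when the library that stood apart was dropped (adjusted p = 0.00016, edgeR).

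At 18 h, 2, 2, 2 and 3 counts of Il12a remained in the BMDM-WT libraries. The BMDM-Nur77-KO libraries had 41, 40, 58 and 40 counts (3.67, 3.57, 4.07 and 3.27 CPM). The ratio of the pooled levels was 18.1, with a 95% interval of 9.33 to 40.3 that covers counting error only, and edgeR's quasi-likelihood test gave an adjusted p of 1.4e-09. The knockout at 18 h was also above BMDM-WT at 5 h, with no overlap. From 5 to 18 h the pooled level fell 13.6-fold in BMDM-WT (95% interval 6.89 to 30.8, counting error), to 7.33% of the 5 h mean. In BMDM-Nur77-KO it stood at 50.1% of the 5 h mean, a difference of -0.99 on the log2 scale (SE 0.19, adjusted p = 7.9e-05, edgeR), close to the limit of 1. The interaction was 2.72 (SE 0.43, adjusted p = 8.9e-05, edgeR), fitted on the few counts of BMDM-WT at 18 h, and its adjusted p was 1.3e-05 without the library that stood apart.

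The summed level of the dendritic cell markers in the list used here was, like Il12a, higher in BMDM-Nur77-KO at 18 h. The 6 markers summed to 13.1 to 19.0 CPM in BMDM-WT and 13.1 to 27.1 CPM in BMDM-Nur77-KO at 5 h, and to 5.18 to 7.13 against 13.5 to 21.8 CPM at 18 h. At 0 h the sums were 1.22 to 1.50 and 1.55 to 2.53 CPM. Xcr1 and Clec9a made up 93.4 to 99.6% of the sum in the libraries at 5 and 18 h but at most 62.5% of it at 0 h. At 18 h their group means were 2.40 and 3.52 CPM in BMDM-WT, and 4.37 and 12.1 CPM in BMDM-Nur77-KO. From 5 to 18 h in BMDM-Nur77-KO, Xcr1 fell from 14.8 to 4.37 CPM while Clec9a rose from 3.86 to 12.1 CPM. The others were low: Flt3, Cd209a and Siglech had at most 4, 4 and 5 counts in any library, and Zbtb46 at most 15. The part of such cells in the Il12a result was not tested.

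Il23a, the p19 chain of IL-23, was the early member. It was at 0 counts at 0 h in all libraries. At 1 h the BMDM-WT libraries had 157, 154, 122 and 95 counts (11.2, 10.8, 8.16 and 9.91 CPM). The BMDM-Nur77-KO libraries had 78, 52, 79 and 82 counts (6.67, 3.91, 6.30 and 6.16 CPM). The groups did not overlap, and Il23a was 1.74-fold lower in the knockout (log2 -0.80, SE 0.18, adjusted p = 0.0053, edgeR). Against the floor of 3 counts over the group at 0 h, it was at least 198-fold higher after 1 h for BMDM-WT, and for BMDM-Nur77-KO the same bound was at least 100.04-fold. The only other subunit with a call at 1 h of LPS, Il12b, did not differ beyond its spread between genotypes at this time. The 6 neutrophil markers (Ngp, Camp, Ltf, S100a8, S100a9 and Mpo) summed to 43.3 to 51.9 CPM in BMDM-Nur77-KO and 28.2 to 37.7 CPM in BMDM-WT at 1 h. In the same order, the sums were 27.05 to 35.1 and 17.7 to 30.0 CPM at 0 h. They were 40.5 to 48.8 and 32.3 to 45.7 CPM at 5 h, and the genotypes overlapped at 0 and 5 h. The part of these markers in the Il23a difference at 1 h was not tested.

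At 5 h the order of Il23a was turned, with 4, 6, 6 and 4 counts in the BMDM-WT libraries and 26, 28, 28 and 17 in the BMDM-Nur77-KO libraries. These are 0.582 ± 0.139 and 2.38 ± 0.519 CPM (mean ± SD, n = 4). The knockout was 4.04-fold higher (log2 2.01, SE 0.32, adjusted p = 1e-04, edgeR), without overlap, and the difference stayed between 1.91 and 2.15 with single libraries left out (1.93, adjusted p = 4e-04, edgeR, without the library that stood apart). The level had fallen to 5.81% of the 1 h mean in BMDM-WT and to 41.4% in BMDM-Nur77-KO. This change from 1 to 5 h differed between the genotypes by 2.81 on the log2 scale (SE 0.37, adjusted p = 4.3e-05, edgeR), an interaction added after the values were seen (2.73 without the library that stood apart). It was called for 1 of the 5 subunits and for 4.02% of all genes, and DESeq2 gave no adjusted p for Il23a there. At 18 h, 1 count was left over the BMDM-WT libraries and 4 over the BMDM-Nur77-KO libraries, at which depth no difference was detectable.

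Il27, the p28 chain of IL-27, was the most sharply peaked of the subunits present at rest. At 0 h it stood at 4.15 to 5.80 CPM in BMDM-WT and 2.84 to 4.29 CPM in BMDM-Nur77-KO, ranges that overlap (log2 -0.52, SE 0.28, 95% interval -1.09 to 0.05, adjusted p = 0.23, edgeR). At 1 h it was at 4.75 to 6.68 and 5.11 to 8.14 CPM (log2 0.19, SE 0.26, adjusted p = 0.82, edgeR), and the log2 difference of 1 h from 0 h in BMDM-WT was 0.17 (SE 0.26, adjusted p = 0.68, edgeR). In BMDM-Nur77-KO Il27 rose by 0.88 over this hour (SE 0.28, adjusted p = 0.032, edgeR), under the limit of 1. At 5 h it was 28.6-fold over 0 h in BMDM-WT and 35.9-fold in BMDM-Nur77-KO (log2 4.84 and 5.16, SE 0.24 and 0.25). The BMDM-WT libraries held 138, 141, 144 and 150 CPM. The BMDM-Nur77-KO libraries held 57.0, 121, 158 and 165 CPM. The knockout values lay on both sides of the wild-type values, and the difference was -0.19 (SE 0.19, 95% interval -0.59 to 0.20, adjusted p = 0.48, edgeR). Without the library that stood apart, which holds the lowest value, it was 0.05.

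At 18 h Il27 was at 13.4, 12.8, 11.3 and 15.5 CPM in BMDM-WT and at 25.6, 29.9, 27.2 and 17.0 CPM in BMDM-Nur77-KO. The lowest knockout library lay just above the highest wild-type library. Il27 was 1.88-fold higher in the knockout (log2 0.91, SE 0.22, adjusted p = 0.0025, edgeR). From 5 to 18 h it fell by 3.43 on the log2 scale in BMDM-WT (SE 0.22) and by 2.33 in BMDM-Nur77-KO (SE 0.21), to 9.25% and 19.9% of the 5 h mean. The interaction was 1.10 (SE 0.29, adjusted p = 0.0096, edgeR), and the adjusted p was 0.067 with only the libraries of the 4 groups in the fit. Without the library that stood apart it was 0.86 (adjusted p = 0.0024, edgeR). Relative to 0 h, the response at 18 h differed by 1.43 (SE 0.36, adjusted p = 0.0072, edgeR). Il27 was the only one of the 5 subunits called in that interaction, which was called for 9.4% of all genes. Il12a, Il12b and Il23a have too few counts at 0 h for it to be measured.

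**Figure D2:**
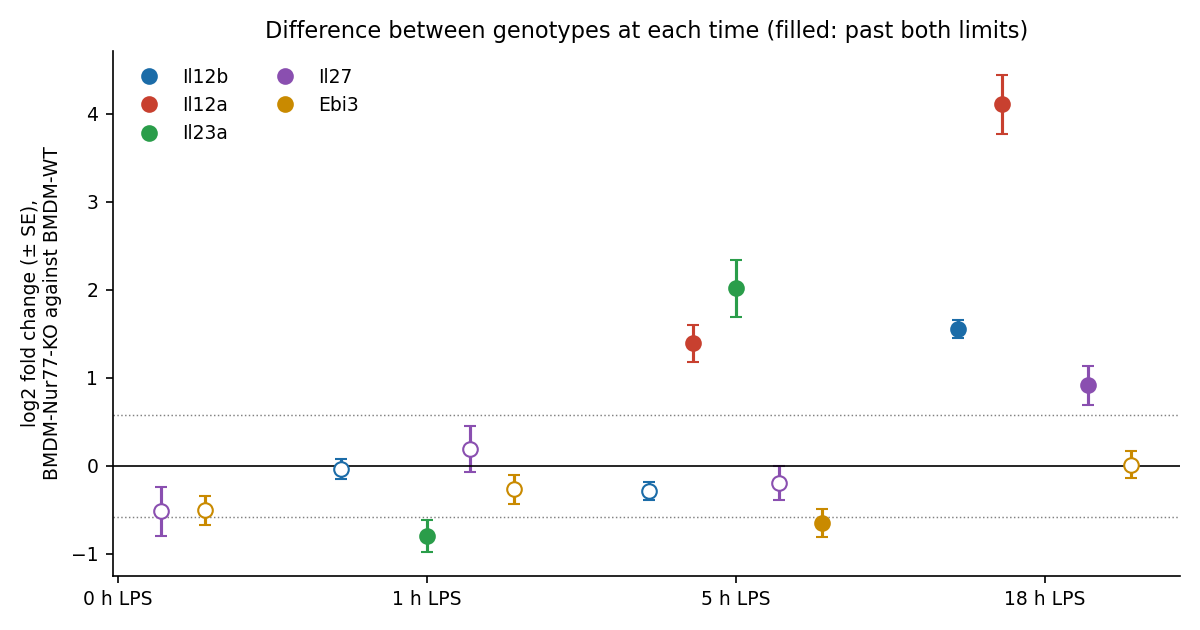
Log2 fold change of BMDM-Nur77-KO against BMDM-WT with its SE (vertical axis) for each subunit at 0, 1, 5 and 18 h of LPS, from edgeR on 4 libraries per group. Filled points passed an adjusted p of 0.05 and the dotted limit of 0.58 either way, groups with too few counts are left out, and the Il12a point at 18 h rests on 9 counts in BMDM-WT. Il23a lies below 0 at 1 h and above it at 5 h, and Il12a, Il12b and Il27 lie above it at 18 h.

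Over the whole family, the interaction of genotype with the change from 5 to 18 h was called for 4 of the 5 subunits, where 13.5% of all genes were called. In all 4 the log2 change was greater (less of a fall or more of a rise) in BMDM-Nur77-KO, which need not mean a higher level. Ebi3 did not differ between genotypes at 18 h (log2 0.01). Without the library that stood apart it was called for 3 of the 5 (Il12a, Il12b and Il27) and for 15.2% of all genes. The median over the 5 was 1.10 on the log2 scale, against -0.02 over all genes tested. Il23a, the exception, was near 0 at 18 h. The interactions at 1 h and 5 h relative to 0 h were called for 0 of 5 subunits by edgeR and by DESeq2, with 0 at an unadjusted p under 0.05, and for 0.0709% and 3.09% of all genes, but of these subunits only Il27 and Ebi3 had counts at 0 h to test it on. For Ebi3 at 5 h the interaction was -0.14 (SE 0.23, 95% interval -0.61 to 0.32), and for Il27 it was 0.33 (SE 0.34, 95% interval -0.37 to 1.02).

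The order of the 8 groups by mean level differed between subunits. Il12a was highest in BMDM-Nur77-KO at 5 h, then in BMDM-Nur77-KO at 18 h, then in BMDM-WT at 5 h, and these neighbours did not overlap. For Il12b the order was BMDM-WT at 5 h, BMDM-Nur77-KO at 5 h, BMDM-Nur77-KO at 18 h and BMDM-WT at 18 h, again without overlap, while the groups at 1 h overlapped each other. Il23a ran from BMDM-WT at 1 h through BMDM-Nur77-KO at 1 h and 5 h to BMDM-WT at 5 h, without overlap. For Il27, both groups at 5 h overlapped, as did all neighbours among the groups at 0 and 1 h. For Ebi3, both groups at 18 h and BMDM-WT at 5 h overlapped each other, and only BMDM-WT at 5 h against BMDM-Nur77-KO at 5 h, and BMDM-WT at 0 h against BMDM-Nur77-KO at 0 h, were neighbours without overlap.

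Levels per transcript length show how the makeup of the family changed. At 0 h, Ebi3 made up 81.1% ± 1.83 of the summed RPKM of the 5 genes in BMDM-WT and 81.1% ± 2.13 in BMDM-Nur77-KO (mean ± SD, n = 4), and Il27 made up nearly all of the rest. At 5 h in BMDM-WT, Il12b stood at 163 ± 11.0 RPKM, Il27 at 140 ± 5.30 and Ebi3 at 76.2 ± 2.67, against 2.17 ± 0.297 for Il12a and 0.428 ± 0.102 for Il23a. At 18 h, Ebi3 made up 69.1 to 76.4% of the sum in the BMDM-WT libraries and 47.3 to 54.4% in the BMDM-Nur77-KO libraries. Il12b made up 14.0 to 20.1% and 29.3 to 40.2% at that time. For both subunits the shares of the genotypes did not overlap at 18 h.

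**Figure D3:**
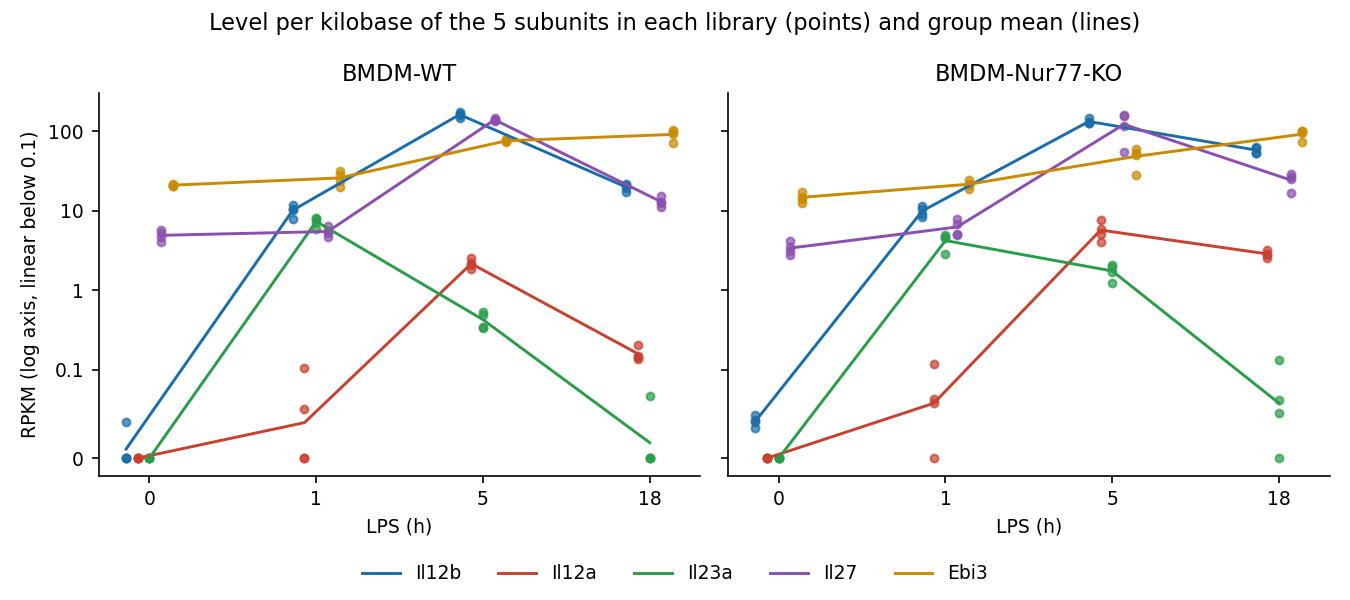
Reads scaled to transcript length and library total (RPKM, log axis that is linear below 0.1) of the 5 subunit genes against hours of LPS in BMDM-WT and BMDM-Nur77-KO, with a point for each library (4 per group) and a line through the group means. Ebi3 leads at 0 h and 18 h, Il12b and Il27 lead at 5 h, and the group means of Il12a stay below those of Il12b and Ebi3, its partners.

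The ratio of partner chains, on RPKM with 0.5 added to each count, was compared between genotypes wherever both chains had over 3 counts in a library of each genotype, which gave 8 comparisons. The ratio of Il12b to Il12a at 5 h was 64.0 to 86.5 in the BMDM-WT libraries and 18.8 to 31.3 in the BMDM-Nur77-KO libraries. The ratio of Il12b to Il23a was 1.30 to 1.50 in BMDM-WT and 1.87 to 2.93 in BMDM-Nur77-KO at 1 h, where both chains of IL-23 had levels of the same order. By 5 h it had turned to 278 to 465 in BMDM-WT and 64.3 to 99.9 in BMDM-Nur77-KO. For all 3 of these, the genotypes did not overlap.

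Among the chains of IL-27, the ratio of Ebi3 to Il27 was 3.82 to 5.02 and 3.99 to 5.39 at 0 h in BMDM-WT and BMDM-Nur77-KO. At 5 h it was below 1 in every library, 0.499 to 0.566 in BMDM-WT and 0.346 to 0.512 in BMDM-Nur77-KO. At 18 h it was 6.04 to 8.32 in BMDM-WT and 3.24 to 4.35 in BMDM-Nur77-KO, without overlap. The ratio of Ebi3 to Il12a, the chains of IL-35, was 30.9 to 40.1 in BMDM-WT and 3.67 to 13.0 in BMDM-Nur77-KO at 5 h, also without overlap, with the lowest value in the library that stood apart. A two-sided exact permutation test of the log2 ratios gave p = 0.0286 for the 5 ratios without overlap, the smallest value that 4 against 4 libraries allow, and 0.0457 after Benjamini-Hochberg adjustment over the 8. The ratio of Ebi3 to Il27 did not pass at 0, 1 or 5 h (exact permutation p = 0.914, 0.2 and 0.0571).

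**Figure D4:**
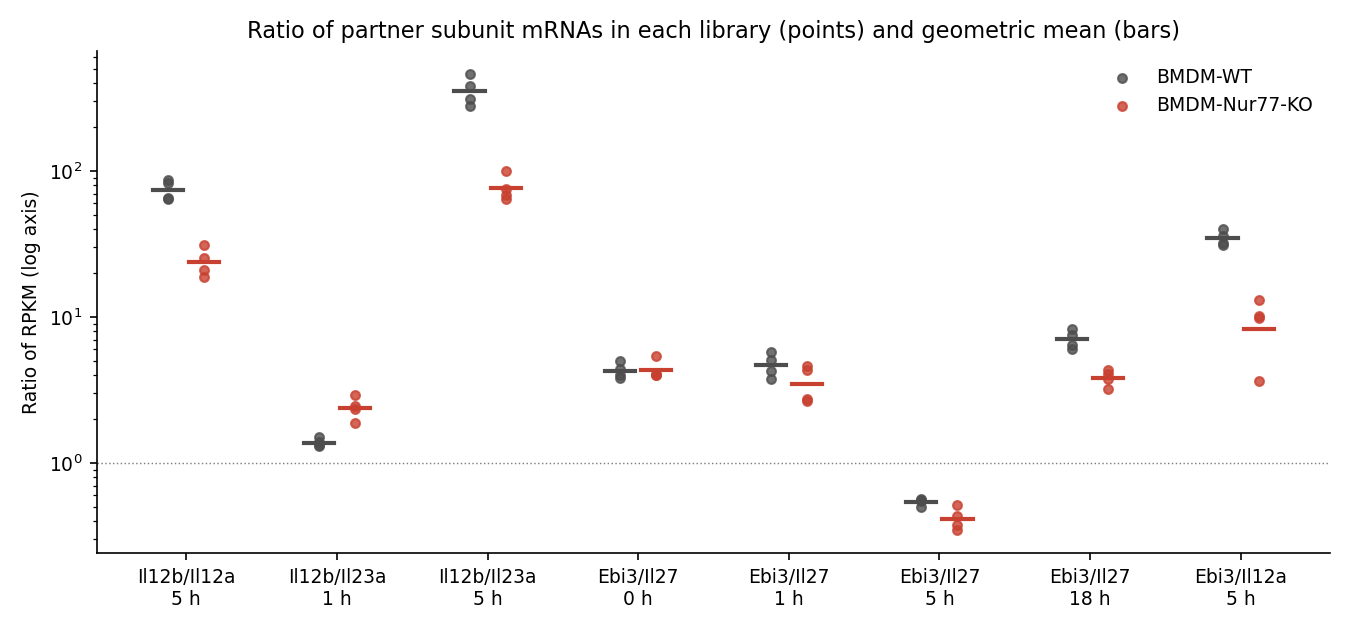
Ratio of RPKM of partner chains (log axis) in each library (points) with the geometric mean (bars) for the 8 pairs and times compared, BMDM-WT in grey and BMDM-Nur77-KO in red, 4 libraries each. The genotypes do not overlap for Il12b to Il12a at 5 h, Il12b to Il23a at 1 and 5 h, Ebi3 to Il27 at 18 h and Ebi3 to Il12a at 5 h.

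The genes whose log2 CPM followed each subunit most closely over the 32 libraries differed between subunits. For Il12b they were Cflar, an inhibitor of caspase-8, Bcl2a1d, a BCL2 family survival gene, and Ptgs2os2 (Pearson r = 0.991, 0.991 and 0.986). For Il23a they were Cxcl1, a neutrophil chemokine, Rasgef1b and Maff, a small MAF transcription factor (r = 0.980, 0.979 and 0.970). For Il12a they were Mtus1, Larp1b and Rhoh (r = 0.980, 0.979 and 0.968), for Il27 Notch1, Src and Foxp4 (r = 0.986, 0.985 and 0.984), and for Ebi3 Zmynd15, Snx20 and Slc7a8 (r = 0.984, 0.982 and 0.977). Among the subunits themselves, r was 0.899 for Il12a and Il27, 0.805 for Il12b and Il27, 0.791 for Il12a and Il12b, 0.400 for Il12b and Il23a, and -0.20 for Il23a and Ebi3. The 32 libraries share the time course, so these values mostly describe the shape over time and carry no test.

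Of 14 genes that regulate IL-12 family transcription (the regulator list: Rel, Rela, Nfkb1, Nfkbiz, Bcl3, Irf1, Irf3, Irf5, Irf8, Spi1, Cebpb, Nfil3, Maf and Il10), 5 passed as higher in the knockout at 18 h and none as lower, where 9.82% of all genes were called. Their median log2 difference was 0.43, against -0.01 over all genes tested. The 5 were Rel (c-Rel, the NF-kB subunit required for p40 and p35 transcription; 62.6 ± 9.77 CPM in BMDM-WT and 105 ± 19.9 CPM in BMDM-Nur77-KO, mean ± SD, n = 4), Nfkb1 (140 ± 3.52 and 236 ± 27.5 CPM), Nfkbiz (43.0 ± 1.77 and 67.7 ± 2.46 CPM), Irf1 (426 ± 28.2 and 705 ± 36.8 CPM) and Nfil3, a repressor of Il12b (15.6 ± 1.57 and 29.9 ± 3.09 CPM). Their log2 differences were 0.75, 0.75, 0.66, 0.73 and 0.94. In each of the 5 every knockout library was above every wild-type library at 18 h.

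At 0, 1 and 5 h, 1 of the 14 regulators was called at each time, a share near the 4.81%, 2.86% and 8.75% of all genes called. The genes were lower in the knockout: Irf1 at 0 h (log2 -0.81), and Il10, which restrains IL-12 production, at 1 h (log2 -0.77) and 5 h (log2 -1.33, and -1.37 without the library that stood apart). At 5 h Il10 stood at 32.7 ± 5.09 CPM in BMDM-WT and 13.0 ± 1.21 CPM in BMDM-Nur77-KO (mean ± SD, n = 4). At 18 h it stood at 5.93 ± 0.972 and 8.11 ± 0.992 CPM, a difference that was not called. The interaction of genotype with the change from 5 to 18 h was called for 7 of the 14 (13.5% of all genes). All 7 had the greater log2 change in BMDM-Nur77-KO, with the largest value for Il10 (1.78, SE 0.20). Without the library that stood apart it was again called for 7, of which 6 were shared: Spi1 was lost and Rel gained.

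Of 10 receptor and signalling genes (Il12rb1, Il12rb2, Il23r, Il27ra, Il6st, Tyk2, Jak1, Jak2, Stat3 and Stat4), 4 passed as higher in the knockout at 18 h and none as lower, against 9.82% of all genes called. They were Il12rb2, the signalling chain of the IL-12 receptor (4.61 ± 0.800 CPM in BMDM-WT and 7.88 ± 1.26 CPM in BMDM-Nur77-KO, mean ± SD, n = 4), Il23r (8.45 ± 1.41 and 17.1 ± 2.07 CPM), Jak2, the kinase bound to both (425 ± 58.5 and 765 ± 132 CPM), and Stat3 (296 ± 15.5 and 474 ± 37.7 CPM). Their log2 differences were 0.77, 1.02, 0.85 and 0.68, and the median of the 10 was 0.39. In none of the 4 did the genotypes overlap at 18 h. At 5 h, 2 of 10 were called (8.75% of all genes), both lower in the knockout: Il12rb1, the receptor chain shared by IL-12 and IL-23 (9.00 ± 0.711 and 3.86 ± 1.56 CPM, log2 -1.20), and Stat4, the transcription factor downstream of IL-12 (8.82 ± 1.20 and 5.19 ± 1.02 CPM, log2 -0.76). The BMDM-Nur77-KO libraries spanned 1.96 to 5.50 CPM of Il12rb1. Both genes were called without the library that stood apart (log2 -1.003 and -0.78), when 4.83% of all genes were. At 0 h, 2 were called lower (Il12rb1 and Stat4; 4.81% of all genes), and at 1 h only Stat4 (log2 -0.87; 2.86%). The change from 5 to 18 h differed for 7 of the 10 (13.5% of all genes), and for the same 7 without the library that stood apart. All 7 had the greater log2 change in BMDM-Nur77-KO.

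**Figure D5:**
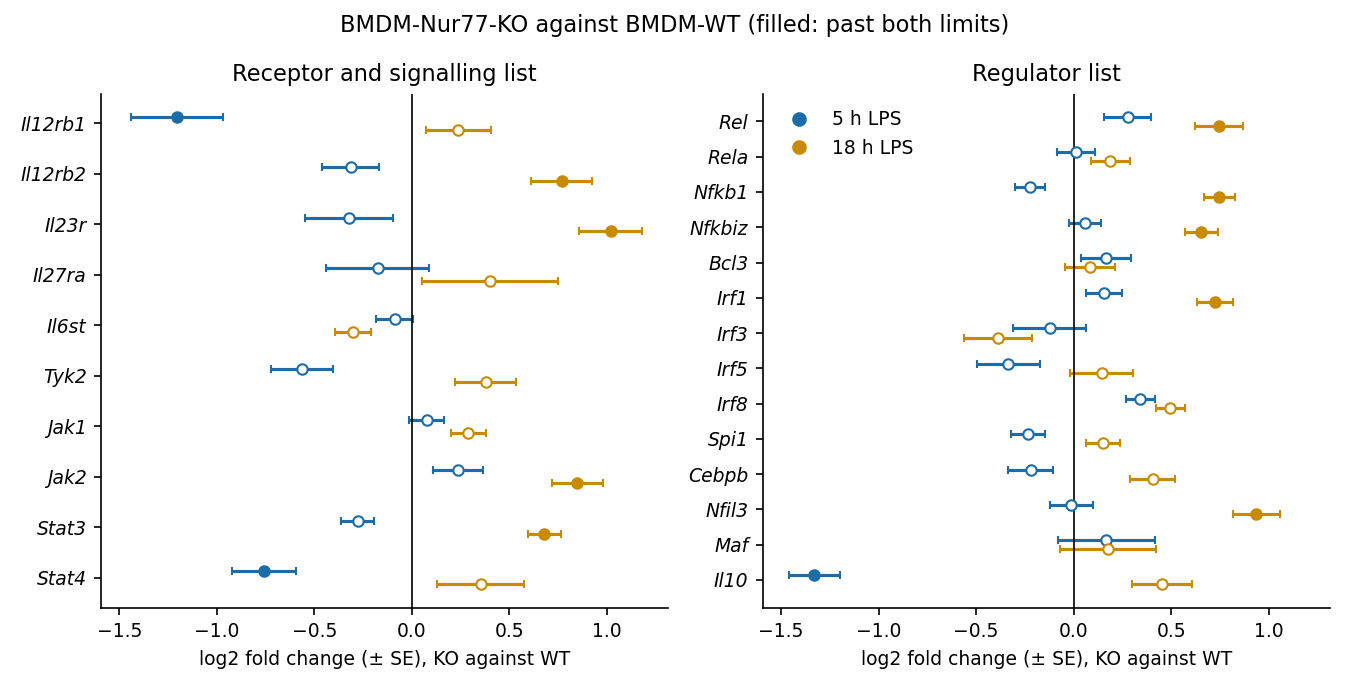
Log2 fold change of BMDM-Nur77-KO against BMDM-WT with its SE (horizontal axis) for the 10 receptor and signalling genes and the 14 regulators at 5 h and 18 h of LPS, from edgeR on 4 libraries per group. Filled points passed an adjusted p of 0.05 and a log2 fold change of 0.58 either way: those at 18 h lie to the right of 0, and those at 5 h (Il12rb1, Stat4 and Il10) to the left.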

How the data were processed

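RNA-seq libraries were prepared with a KAPA mRNA HyperPrep kit. Read pairs were mapped to mm10 by the authors (HISAT2 2.1.0), kept by mapping quality (SAMtools) and summed per RefSeq transcript (HOMER). The submitters' processing notes also name CASAVA 1.8.2. The deposited table holds these expected counts per transcript without normalization, as multiples of 0.5 because each mate adds that much. Counts were rounded to whole numbers. Of 42361 transcripts, 93 could not be named, took 0.233% to 1.37% of a library's tags and were left out. For each gene the row with the highest mean was kept, since transcripts of a gene share reads.

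Counts were scaled with TMM and tested with edgeR 4.0.16 (R 4.3.3), in a quasi-likelihood model of 8 group means, on the 11282 genes over 1 RPKM in a group. P-values were adjusted with the Benjamini-Hochberg method. CPM and RPKM were computed from these counts and lengths from GENCODE. SE values are those the test implies. Folds against groups with few counts are ratios of pooled counts with exact intervals, and 3 counts over the group were taken as the floor. Intervals and floors cover counting error only. Partner ratios were tested with scipy 1.17.1. The procedure was tested on simulated data. Same-numbered replicates did not deviate together: in 0 of 28 pairs of groups were all correlations over 0.1. No pair of replicates agreed within sampling noise.

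Alternatives were DESeq2 1.42.0, its size factors in edgeR, other filters on low counts, summed transcripts, only the libraries compared, a replicate block, leaving out each library, no limit on the fold change, and 1 in place of 0.5 added in ratios. The members and gene lists were chosen with earlier results of these data known. Of the receptor and signalling list, 1 gene is not reported here, and its counts and medians are over the other 10. Genes named were the 5 members, list genes that passed a comparison or served as examples, the 3 genes most correlated with each member, and Nr4a1.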

Additional observations from a re-analysis of the deposited data

Results flagged for a closer look

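For 6 results the change over time differed between BMDM-WT and BMDM-Nur77-KO by the test of the interaction itself (edgeR's quasi-likelihood test, Benjamini-Hochberg adjustment, 4 libraries per group). From 5 to 18 h, the log2 change was greater (less of a fall or more of a rise) in BMDM-Nur77-KO by 2.72 for Il12a, 1.84 for Il12b, 1.10 for Il27 and 0.66 for Ebi3 (0.48, adjusted p = 0.057, when the library that stood apart was dropped). From 0 to 18 h it was greater by 1.43 for Il27. From 1 to 5 h it was greater by 2.81 for Il23a, a comparison added after the values were seen. Of 29 subunit groups of 4 libraries with over 3 counts in a library, none had a single library beyond Dixon's critical value.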

How the results depend on the processing

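Of 665 values of the subunits under the alternatives (with the lowest and highest from leaving out single libraries), 649 kept their direction and side of the threshold, 6 lost it, 6 gained it and 4 changed sign. Other values from leaving out single libraries are not in this total. Among them are losses of the Ebi3 interaction from 5 to 18 h, which missed the threshold for 12 of 16 libraries. With no limit on the fold change, the subunits called became 1 instead of 0 between genotypes at 0 h, 4 instead of 2 for 1 h of LPS in BMDM-Nur77-KO, and 5 instead of 3 for 18 h against 5 h there. Il12b was then also called between genotypes at 5 h (log2 -0.29, adjusted p = 0.038, edgeR). Giving the gene lists without the library that stood apart was chosen after seeing the data. Their counts between genotypes at 5 h and in the interaction from 5 to 18 h did not change, although Rel replaced Spi1 among the regulators. The receptor and signalling genes called for 18 h against 5 h in BMDM-Nur77-KO went from 7 to 5. Leaving out single libraries gave 0 to 1 at 0 h, with 1 when the fourth replicate of unstimulated BMDM-Nur77-KO was left out. With only the libraries compared, fewer samples estimate the spread, and the interaction from 5 to 18 h was called for 2 subunits instead of 4. DESeq2 gave no adjusted p for Il12a and Il23a in the interactions at 1 h relative to 0 h and at 5 h relative to 1 h.

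Values that changed sign were near 0. Leaving out single libraries gave log2 differences between genotypes of -0.14 to 0.0525 for Il12b at 1 h, -0.35 to 0.0477 for Il27 at 5 h and -0.0894 to 0.11 for Ebi3 at 18 h, an interaction of -0.27 to 0.0387 for Ebi3 at 5 h relative to 0 h, and -0.089 to 0.0915 for the log2 ratio of Ebi3 to Il27 at 0 h.

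Same-numbered replicates share only a number. With the replicate block, the interaction of Ebi3 from 5 to 18 h had an adjusted p of 0.058 (0.67 on the log2 scale), and 0 of the 5 partner ratios were called, since a sign-flip test of 4 pairs cannot go below 0.125; no other call changed. Leaving out single libraries, 0 to 5 ratios were called, and all 5 kept their sign. A test of 3 against 4 libraries cannot pass after adjustment. Leaving out any library at 1, 5 or 18 h gave 0 called ratios. The ratios still tested on 4 against 4 libraries lost their call too, although the smallest p stayed at 0.0286 (exact permutation test). The 5 calls thus depend on one another through the adjustment.

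Over all genes, the count between genotypes at 5 h was 987, against 308 with only the libraries compared and 545, 1629 and 1711 when replicate 1, 3 or 4 of the 5 h knockout group was dropped. Interaction counts with only the libraries compared were 274 instead of 8 (1 h relative to 0 h), 166 instead of 349 (5 h relative to 0 h), 839 instead of 1519 (18 h relative to 5 h) and 206 instead of 454 (5 h relative to 1 h). For the first, no filter gave 3, DESeq2 gave 37, and leaving out single libraries gave as few as 2. For the last, no filter gave 286, DESeq2 gave 776, and leaving out single libraries gave 275 to 1524. The cause was not tested. DESeq2's size factors moved the median of all genes by at most 0.0871. Il12a had at most 90 counts in any library, its peak at 5 h included. Il23a had 95 to 157 counts per library in BMDM-WT and 52 to 82 in BMDM-Nur77-KO at its peak at 1 h, and fewer at other times. Small differences in both were therefore not detectable.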
